A study of Mus musculus with 2 samples.

Results

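Marker genes of type II spiral ganglion neurons were followed across 869 single neurons of the mouse cochlea. The 8 genes, out of 14425 measured, were *Prph*, *Th*, *Plk5*, *Smad3*, *Etv4*, *Hspb1*, *Tnmd* and *S100a13*. They were named with results of these same cells known, so their high levels in the cells picked out by them are a description. Neurons came from 2 libraries, 1 per genotype. The library iCON came from control mice with one *Runx1*-CreER allele and one Ai14 allele. The library iCKO came from mice with *Runx1*-CreER opposite a floxed *Runx1* allele (Runx1F), together with one Ai14 allele. All mice, controls included, thus carried the tamoxifen-inducible Cre at *Runx1* and the tdTomato reporter, and received tamoxifen on postnatal day 1. Both sexes were pooled, tissue was taken on postnatal days 27 to 29, and cells were sorted for tdTomato before 10x Genomics 3′ library preparation. The number of animals per library is not given in the sources used here, and the sort for a reporter switched on by this Cre can set the share of any cell type.

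Spiral ganglion neurons carry signals from the cochlea to the brainstem. Type I neurons, the large majority, are myelinated and contact inner hair cells, whereas type II neurons are few, thin and unmyelinated and contact many outer hair cells. Type II neurons are classically recognised by the intermediate filament protein peripherin, and their maturation involves the zinc finger factor GATA3, while type I neurons are divided into subtypes by, among others, the calcium buffer gene *Calb2* and the prototoxin gene *Lypd1*.

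The library iCON held 462 cells with a median of 49725.5 UMIs (unique molecular identifiers, counted transcripts), and iCKO held 407 cells with a median of 33602. No cell barcode was shared by the libraries. Cells with *Xist* RNA and no Y-linked RNA were 54.5% of iCON and 78.4% of iCKO, and cells with Y-linked RNA and no *Xist* were 43.7% and 20.1%. RNA of the targeted gene was read as a check of the labels, although 3′ counting can still record a transcript without its floxed exon. Over cells with *Calb2* or *Lypd1* at 1000 CPM (UMIs per 1000000 UMIs of the cell) or more, mean *Runx1* was 92.7 CPM in iCON and 115 CPM in iCKO, so the library labelled iCKO had no less of it. Directions below are therefore between libraries as labelled. In these same cells the 2 genes that define them also differed between the libraries. The log2 ratio of iCKO over iCON was 1.12 for *Calb2* and -0.72 for *Lypd1*. Cells high in *Calb2* or *Lypd1* were thus not alike in these type I subtype genes. The part of this difference in the ratios of other genes read in them was not tested. With 1 library per genotype no test was run, cells are not replicates, and all intervals are 95% intervals of counting error only.

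The cells were sharply divided by these genes. A gene was called high in a cell at 200 CPM, and a cell was called type II where at least 4 of the 8 genes were high and *Calb2* and *Lypd1* were each below 1000 CPM. In 830 of 869 cells no member was high, in 3 cells 1 member was high, and in 36 cells at least 2 were. Of those 36 cells, 35 were below the limit for both *Calb2* and *Lypd1*. Only 40 cells lay below that limit in all, 32 in iCON and 8 in iCKO, and 30 of them met the type II rule, 25 in iCON and 5 in iCKO. Among the 25 iCON cells, 10 had 4 high members, 10 had 5 and 5 had 6. Among the 5 iCKO cells, 2 had 4 and 3 had 5. Just outside the rule lay 5 cells with 3 high members, 4 in iCON and 1 in iCKO. Of 829 cells high in *Calb2* or *Lypd1*, a single iCON cell had 2 high members, *Hspb1* at 265.9 CPM and *S100a13* at 299.1 CPM, beside 18014.4 CPM of *Calb2*.

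**Figure D1:**
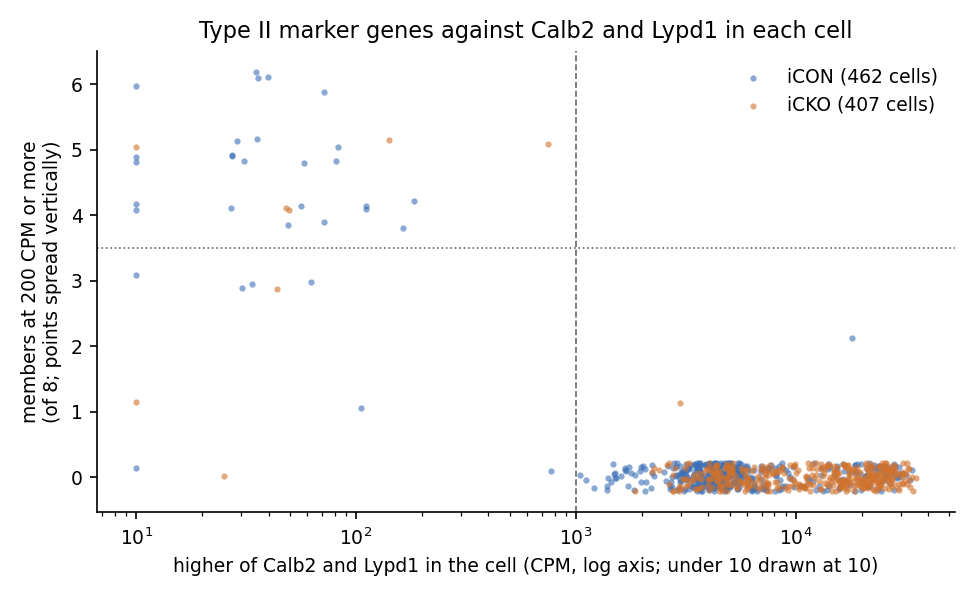
Number of the 8 member genes at 200 CPM or more in each cell (vertical axis, points spread) against the higher of *Calb2* and *Lypd1* in the cell (CPM, log axis, values under 10 drawn at 10), 1 point per cell, coloured by library. The dashed line is the limit of 1000 CPM and the dotted line the minimum of 4 high members; cells right of the limit sit at 0 except for 2, and most cells left of it sit at 3 to 6.

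The label was checked against *Gata3*, which the rule did not use, although it was measured in the same cells. *Gata3* ran from 410.8 to 1060.75 CPM over the 25 iCON type II cells, with a median of 716.7 CPM, and from 425 to 1096 CPM over the 5 iCKO cells. In cells high in *Calb2* or *Lypd1* its highest value was 137 CPM in iCON and 170 CPM in iCKO. The ranges of type II cells and of these cells did not overlap. *Gata3* was also at or above 200 CPM in 7 of the 10 remaining cells with low *Calb2* and *Lypd1*. These 7 cells, 5 in iCON and 2 in iCKO, had 1 or 3 high members and between 614.3 and 967.7 CPM of *Gata3*. Neuron genes were present as well: 5 of 6 listed neuron markers were detected in most iCON type II cells, at a summed median of 3822 CPM against 10163 CPM in cells high in *Calb2* or *Lypd1*, and in iCKO type II cells 4 of the 6 were, at 3312 CPM against 9837. *Syt2* was at 0 in type II cells of both libraries. Myelin RNA was summed over myelin genes that include *Mbp* and *Pmp22*. Its median was 828 CPM (up to 8681) in iCON type II cells and 0 CPM (up to 989) in iCKO. In cells high in *Calb2* or *Lypd1* its medians were 3865 and 2324 CPM. It was under 500 CPM in 12 of the 25 and 4 of the 5 type II cells. The 8 Schwann and satellite glia genes had summed medians of 2726 and 47.8 CPM in type II cells. They include *S100b*, with means of 23.8 and 38.1 CPM in type II cells against 1198 and 1276 CPM in type I cells. A lower sum in type II cells therefore holds the difference of this gene. The source of the myelin and glia list RNA was not tested. The high level of the other members in type II cells was fixed by the rule and does not bear on the label. *Smad3* and *Etv4* go against it, since no type II cell held a UMI of either.

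Type II cells made up 5.41% of iCON cells (25 of 462, exact interval 3.53 to 7.88) and 1.23% of iCKO cells (5 of 407, 0.4001 to 2.84). The difference was -4.18 percentage points (-6.74 to -1.82). The sex-linked RNA of these cells moved with the library. All 25 iCON type II cells had *Xist* RNA and no Y-linked UMI, and all 5 iCKO type II cells had Y-linked RNA and no *Xist* UMI. Within *Xist* cells the share was therefore 9.92% in iCON (25 of 252) and 0 of 319 in iCKO, which allows up to 0.9404%, a difference of -9.92 points. Within Y-linked cells it was 0 of 202 in iCON, which allows up to 1.49%, and 6.10% in iCKO (5 of 82), a difference of 6.10 points. The direction of the share thus reversed between the sexes. Genotype, animal and library preparation cannot be told apart here, and in type II cells genotype cannot be told apart from sex. The 7 near cells with high *Gata3* followed the same division, 5 iCON cells with *Xist* and 2 iCKO cells with Y-linked RNA. Myelin RNA also moved with the share. Among cells with under 500 CPM of it, type II cells were 11.01% in iCON and 2.55% in iCKO, and among the others 3.68% and 0.4%. The difference kept its sign within both ranges of myelin RNA.

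**Figure D2:**
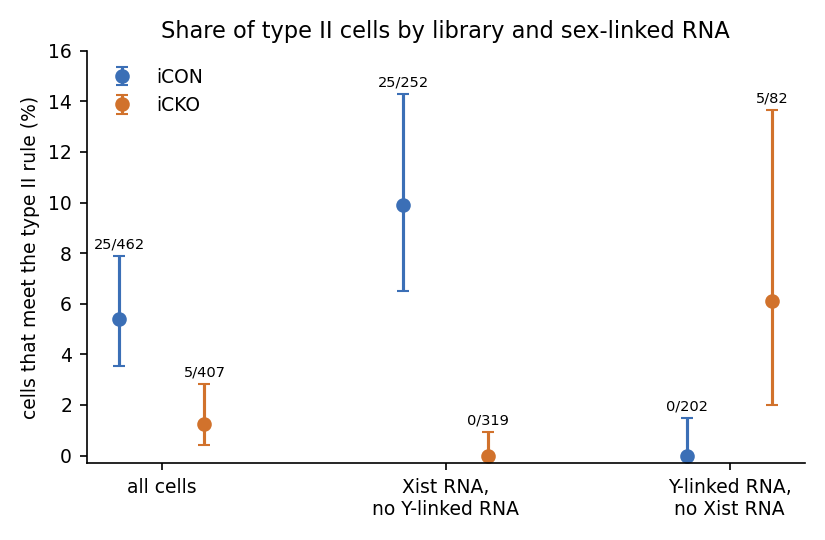
Share of type II cells in percent of cells, with 95% exact intervals, in all cells and within cells divided by sex-linked RNA, for each library; labels give type II cells over all cells. The iCON share is the higher one in all cells and in *Xist* cells, and the iCKO share is the higher one in cells with Y-linked RNA.

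Co-detection was nested. *S100a13*, which encodes a small calcium-binding protein involved in non-classical secretion, was high in 39 cells, and *Hspb1*, the small heat shock protein HSP27, in 36, all of which were also high in *S100a13*. *Plk5*, a member of the Polo-like kinase family found in neurons, was high in 31 cells. *Th*, tyrosine hydroxylase, the rate-limiting enzyme of catecholamine synthesis, was high in 25. *Tnmd*, the membrane protein tenomodulin best known from tendon, was high in 19, and *Prph*, peripherin, in 13. Every cell high in *Plk5*, *Th*, *Tnmd* or *Prph* was also high in *Hspb1* and *S100a13*. Among the 4 less frequent genes the overlap was partial: *Th* and *Plk5* were both high in 21 cells, *Plk5* and *Tnmd* in 17, *Th* and *Tnmd* in 13, *Prph* and *Plk5* in 12, *Prph* and *Th* in 10 and *Prph* and *Tnmd* in 8. At a level of at least 1 UMI instead of 200 CPM, 68 cells held at least 2 members instead of 36.

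**Figure D3:**
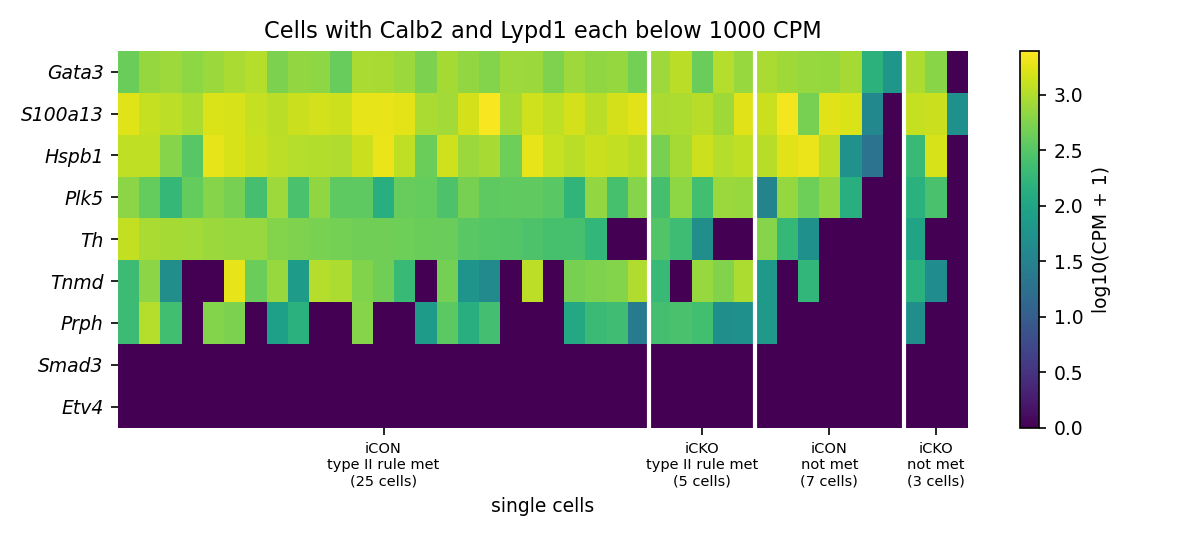
Level of each member and of *Gata3* (colour, log10 of CPM + 1) in the 40 cells with *Calb2* and *Lypd1* each below 1000 CPM, 1 column per cell, split by library and by whether the type II rule was met. *Hspb1*, *S100a13*, *Plk5* and *Gata3* fill every type II column, *Prph*, *Th* and *Tnmd* leave gaps, and *Smad3* and *Etv4* are empty.

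Promoter sequences were read because 6 members were high in the same cells. RefSeq promoter windows, 250 bases before to 50 bases after the start in GRCm38, were matched for 7 members, all but *Etv4*. Letters bound by factors of these pathways were searched on both strands. The CRE letters TGACGT occurred in 2 of the 7 windows, *Th* and *S100a13*, and in 7.51% of 32851 promoters. The ETS letters CGGAAG occurred in 1 (*Prph*) against 16.9%, and the SMAD letters GTCTG in 2 (*Plk5* and *Prph*) against 49.6%. The GATA letters AGATAA (11.2%), the RUNX letters TGTGGT (16.8%) and the heat shock element letters TTCNNGAA (8.52%) occurred in none of the 7. The heat shock letters read the same on both strands, so the opposite order of their outer triplets was not searched. The *Hspb1* window holds that opposite order, and its frequency over all promoters was not counted. The absence of the searched letters therefore does not show that *Hspb1* lacks a heat shock element. The matches in *Th* are a pair on opposite strands that overlap in 1 palindrome, starting 45 bases before the start. The stretch of *Th* upstream of this RefSeq start and outside annotated exons (chr7:142900015-142900245, minus strand) is shown because it holds this match, in capitals. GENCODE also lists longer *Th* transcripts that begin at 142931128 and 142931120, and within those the stretch is intronic. The whole stretch between the exons of *S100a1* and *S100a13* (chr3:90514393-90514434, plus strand) is shown because both genes had higher levels in type II cells. It holds none of the letters searched.
Th: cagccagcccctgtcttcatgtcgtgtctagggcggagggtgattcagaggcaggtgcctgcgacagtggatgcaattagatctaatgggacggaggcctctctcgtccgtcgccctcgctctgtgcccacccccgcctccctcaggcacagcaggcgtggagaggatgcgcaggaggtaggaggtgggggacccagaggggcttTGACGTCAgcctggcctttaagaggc
S100a13: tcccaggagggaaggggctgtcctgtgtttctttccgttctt

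The peripherin gene was one of the least uniform of the 6 detected members. *Prph* (GRCm38 chromosome 15, 99055174 to 99058978, plus strand) lay between 0 and 1035 CPM over the 25 iCON type II cells, with a median of 112 CPM, and had a UMI in 16 of them. In the 5 iCKO cells it was 263.1, 236.2, 247.2, 47.8 and 49.8 CPM. The libraries overlapped, with means of 192 ± 256 and 169 ± 110 CPM (SD over cells, n = 25 and n = 5 cells). The log2 ratio of iCKO over iCON was -0.18, and the counting interval from the summed UMIs was -0.86 to 0.65. Peripherin belongs to the intermediate filaments, and the list of the others was lower rather than higher in type II cells. Of 6 listed genes, 2 were at least 2-fold lower than in type I cells of iCON and none was 2-fold higher, with a median log2 ratio of -0.85 against -0.04 over all genes. The neurofilament genes *Nefl*, *Nefm* and *Nefh* had log2 ratios of -0.95, -1.08 and -1.20. Over all genes of this contrast, which the rule used, 7.7% were at least 2-fold higher and 9.12% at least 2-fold lower in iCON, and 13.3% and 18.4% in iCKO.

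Of the 8 members *Th* differed most between the libraries within type II cells. *Th* (chromosome 7, 142892752 to 142931128, minus strand) had a median of 458 CPM (0 to 1214) over the 25 iCON cells and was high in 22 of them. In the 5 iCKO cells it was 219.2, 47.2, 296.6, 0 and 0 CPM. The ranges overlapped, and each iCKO value lay below the iCON median. The log2 ratio was -2.09, with a counting interval of -3.02 to -1.23. Among type II cells with low myelin RNA, 12 in iCON and 4 in iCKO, it was -2.97. Of the 8 members 1 was past a 2-fold difference in that direction, against 13.5% of all genes, and none in the other, against 6.72%. The share is near the background, and the 5 iCKO cells had 105192 UMIs in all against 761778 in the 25 iCON cells. Most other genes of the catecholamine pathway were not high beside *Th*. Of 9 listed genes with values, 1 was 2-fold higher in iCON type II cells than in type I cells, *Maoa* at a log2 ratio of 1.06. *Ddc*, the next enzyme of the pathway, had no UMI in any type II cell, which allows up to 3.94 CPM in iCON and 28.5 CPM in iCKO. *Slc18a2*, the vesicular monoamine transporter, had a UMI in 1 of 25 iCON cells, and *Gch1*, which starts synthesis of the cofactor of tyrosine hydroxylase, in 3.

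*Plk5* (chromosome 10, 80356459 to 80365489, plus strand) had at least 1 UMI in every type II cell. Its range was 135 to 789 CPM in iCON, median 372 CPM, and the iCKO values were 657.6, 236.2, 247.2, 765 and 747.4 CPM. The ranges overlapped throughout, at a log2 ratio of 0.36 (-0.08 to 0.77). The other Polo kinases, *Plk1* to *Plk4*, which act in cell division and the stress response, had means below 2 CPM in iCON type II cells. Past a 2-fold difference from type I cells were 0 of the 4 in either library. The 5 CPM added to each mean lies above every type I mean of these genes, so a 2-fold lower ratio could not appear. In iCON a 2-fold higher ratio could not appear either, so the count there gives no direction.

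*Hspb1* and *S100a13* were the highest members and, like *Plk5*, were detected in every type II cell. *Hspb1* (chromosome 5, 135887919 to 135889563, plus strand) ran from 329 to 1968 CPM in iCON, median 1177 CPM, and the iCKO values were 876.8, 1369.9, 494.3, 1051.9 and 1195.8 CPM. All iCKO values lay inside the iCON range, and the log2 ratio was -0.20 (-0.51 to 0.09). Other small heat shock genes did not share the level: of 6 with values, none was past a 2-fold difference in iCON, and *Cryab*, an abundant relative, was at a log2 ratio of -0.83. In iCKO 2 of the 6 were 2-fold lower, *Cryab* (-2.04) and *Hspb6* (-1.67), and none was higher. The list of 10 dissociation and stress genes had a summed median of 254 CPM (32.9 to 557) in iCON type II cells and 297 CPM (219 to 498) in iCKO, against 560 and 518 CPM in cells high in *Calb2* or *Lypd1*, with *Egr1* at 0 in type II cells of both libraries. *S100a13* ran from 845 to 2327 CPM in iCON, median 1427 CPM, and the iCKO values were 964.5, 1086.5, 939.2, 812.8 and 1743.9 CPM. Of these, 1 lay below the iCON range, 3 in its lower part and 1 in its upper part, at a log2 ratio of -0.35 (-0.66 to -0.09).

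*S100a13* lies beside another gene of its family that was also higher in these cells. In GRCm38, *S100a13* (chromosome 3, 90514435 to 90524581, plus strand) begins next to *S100a1* (90511034 to 90514392, minus strand), and the genes point away from each other. *S100a1* had a mean of 866 CPM in iCON type II cells and 180 CPM in type I cells, a log2 ratio of 2.23. The other S100 genes went differently: of 7 with values in the list outside *S100a13*, *S100a1* was the only one 2-fold higher in iCON, and 3 were 2-fold lower, among them *S100b* (23.8 against 1198 CPM) and *S100a10* (8.72 against 438 CPM). The share of all genes past these limits was 7.7% higher and 9.12% lower.

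Tenomodulin varied widely. *Tnmd* (chromosome X, 133850980 to 133865577, plus strand) was 0 in 5 of 25 iCON type II cells and reached 1869 CPM, with a median of 458 CPM, and the iCKO values were 0, 755.8, 197.7, 573.8 and 946.7 CPM. The libraries overlapped, at a log2 ratio of 0.09 (-0.43 to 0.45). *Tnmd* is a tendon gene elsewhere, so markers of connective tissue were read beside it. The 8 fibroblast, tendon and bone genes summed to a median of 46.1 CPM (0 to 358) in iCON type II cells and 47.2 CPM (0 to 346) in iCKO, below the 105 and 68.3 CPM of cells high in *Calb2* or *Lypd1*, and the tendon factor gene *Mkx* was at 0.

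*Smad3* and *Etv4*, both transcription factor genes, were not detected in type II cells. *Smad3* (chromosome 9, 63646767 to 63757994, minus strand) transmits TGF-beta and activin signals, and *Etv4* (chromosome 11, 101769742 to 101785371, minus strand) is a PEA3 factor induced by FGF. Neither had a UMI in the 30 cells, which allows up to 3.94 CPM in iCON and 28.5 CPM in iCKO, and neither reached 200 CPM in any cell of the series. *Smad3* had a UMI in 56 cells and *Etv4* in 3, none of them type II. The pathways around them were mixed. Of 14 other Smad and TGF-beta genes, 4 were at least 2-fold higher in iCON type II cells than in type I cells, the inhibitory *Smad7* (2.99, 96.3 against 7.78 CPM) and *Smad6* (1.56), the receptor *Acvr2a* (1.31) and *Smad1* (1.002), and 2 were lower, the ligands *Tgfb2* (-1.96) and *Tgfb3* (-1.05), all as log2 ratios. The median of the list was -0.23 in iCON and 0.65 in iCKO. Of 9 PEA3 and FGF genes, the receptor *Fgfr3* was higher (1.55) and the receptor *Fgfr2* lower (-1.15), and *Etv1* and *Etv5* had no UMI in type II cells.

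**Figure D4:**
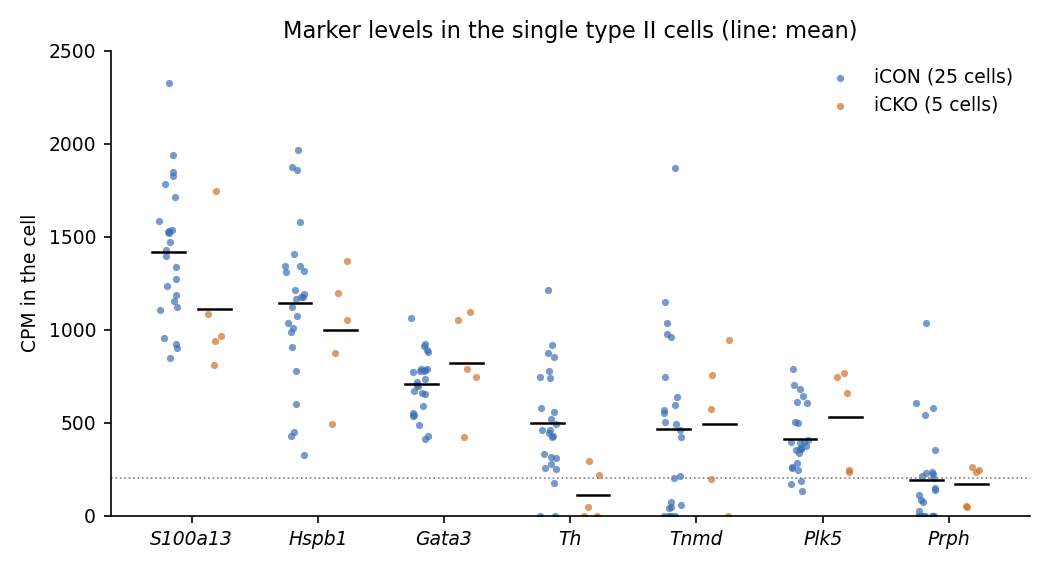
Level of each detected member and of *Gata3* in every type II cell (CPM), by library, 1 point per cell, with a line at the mean of each library and a dotted line at 200 CPM. *S100a13* and *Hspb1* lie highest, *Prph*, *Th* and *Tnmd* reach down to 0, and the iCKO points for *Th* lie below the iCON mean.

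The ratios between the libraries in type II cells depended on the rule. With at least 5 high members, 15 iCON and 3 iCKO cells, *Tnmd* moved from 0.09 to -0.98, *Plk5* from 0.36 to -0.28, *Hspb1* from -0.20 to -0.51 and *Th* from -2.09 to -1.50. With 500 CPM counted as high, 9 and 2 cells, *Prph* was at -2.78 and neither iCKO cell held a *Th* UMI. Within type II cells the members varied in different degrees. After every cell was thinned to 20000 UMIs, the ratio of variance to mean over the 25 iCON cells, which is 1 for counting error alone, was 10.0 for *Tnmd*, 8.12 for *Prph*, 3.71 for *Th*, 3.05 for *Hspb1*, 1.84 for *Plk5* and 1.65 for *S100a13*. *Gata3* stood at 0.875. The thinned means were 9.64 UMIs for *Tnmd*, 3.72 for *Prph*, 9.88 for *Th*, 23.7 for *Hspb1*, 8.4 for *Plk5* and 28.5 for *S100a13*. At equal relative spread this ratio is larger for a higher mean, so its order is not an order of relative spread. The rule, which asks for 4 high members, shapes both this spread and the overlap of members, most of all for the genes that nearly every chosen cell needed to pass. Both were therefore also read in the 30 iCON cells with *Gata3* at 200 CPM or more and *Calb2* and *Lypd1* below the limit, a set chosen after values were seen. There the ratios were 11.3 for *Tnmd*, 8.43 for *Prph*, 4.53 for *Th*, 4.29 for *Hspb1*, 2.17 for *Plk5* and 2.09 for *S100a13*. Of the 25 iCON type II cells, 8 were high in *Th* and *Prph*, 14 in *Th* alone, 2 in *Prph* alone and 1 in neither. Among the 30 cells picked by *Gata3* these counts were 8, 15, 2 and 5. *Th* and *Tnmd* were both high in 13 iCON type II cells, with 9 high in *Th* alone and 3 in *Tnmd* alone. In iCKO type II cells none was high in both, with 2 high in *Th* alone and 3 in *Tnmd* alone, and in neither library was a type II cell low in both. Among the cells picked by *Gata3*, 13 of 30 in iCON were high in both, 10 in *Th* alone, 3 in *Tnmd* alone and 4 in neither, and of 7 in iCKO the counts were 0, 2, 3 and 2. Over the 15 pairs of the 6 detected members, Spearman's rho across the 25 iCON cells, which share a library and differ in depth, ran from -0.087 to 0.37. The highest was for *Hspb1* and *Tnmd*, at 0.48 after thinning. Pairs with *Gata3* ran from -0.50 for *Plk5* (-0.40 after thinning) to 0.497 for *Hspb1* (0.23 after thinning).

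The remaining level in type I cells depended on which cells were counted as such. All cells that did not meet the type II rule numbered 437 in iCON and 402 in iCKO. In them the mean of *S100a13* was 30.7 CPM in iCON and 16.3 CPM in iCKO, of *Hspb1* 14.8 and 5.23, of *Plk5* 4.65 and 1.15, and of *Th* 1.91 and 0.241. The log2 ratios of iCKO over iCON for *Hspb1*, *S100a13* and *Plk5* were -0.96, -0.75 and -0.65, so 3 of 8 members were past 0.5 in that direction, against 1.73% of all genes. These values rested on a few cells, with a smaller share for *S100a13*. The 5 iCON cells near the rule, with high *Gata3*, held all 26 *Th* UMIs, all 70 *Plk5* UMIs, 207 of 225 *Hspb1* UMIs and 249 of 523 *S100a13* UMIs. The 2 such iCKO cells held both *Th* UMIs, 9 of 11 *Plk5* UMIs, 40 of 53 *Hspb1* UMIs and 56 of 205 *S100a13* UMIs. Within cells with Y-linked RNA the ratios were 2.25 for *Hspb1*, 1.18 for *S100a13* and 1.04 for *Plk5*, but the 2 near iCKO cells held all 40 *Hspb1* UMIs, all 9 *Plk5* UMIs and 56 of 69 *S100a13* UMIs behind the iCKO side. In Y-linked cells high in *Calb2* or *Lypd1* the ratios were -0.23 for *Hspb1* and -0.89 for *S100a13*, and *Plk5* had no UMI.

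In cells high in *Calb2* or *Lypd1*, 430 in iCON and 399 in iCKO, most members were close to absent. No such cell held a *Th* UMI, which allows up to 0.143 CPM in iCON and 0.222 CPM in iCKO. *Plk5* had 0 and 2 UMIs, *Tnmd* 4 and 0, *Hspb1* 17 UMIs in 8 cells and 13 in 6 cells, and *Etv4* 5 UMIs in 2 cells and 5 in 1 cell. In 416 of the 430 iCON cells and 381 of the 399 iCKO cells none of *Prph*, *Th*, *Plk5*, *Hspb1* and *Tnmd* was detected, and no cell held more than 1 of them. With these cells as type I cells, 0 of 8 members were past a log2 ratio of 0.5 in either direction, against 0.984% of all genes higher and 1.71% lower in iCKO. The 5 CPM added to each mean lie above the level of most members in these cells and largely fix this count. With 1 CPM added, a setting chosen after seeing the data, *Smad3* (1.08) and *Prph* (0.66) were past 0.5, so 2 of 8 members were higher, against 2.7% of all genes, and 0 were lower, against 5.49%. With 5 CPM, the ratio of *Hspb1* went from -0.96 to -0.07, and *Plk5*, with 2 UMIs in all, gives no direction.

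**Figure D5:**
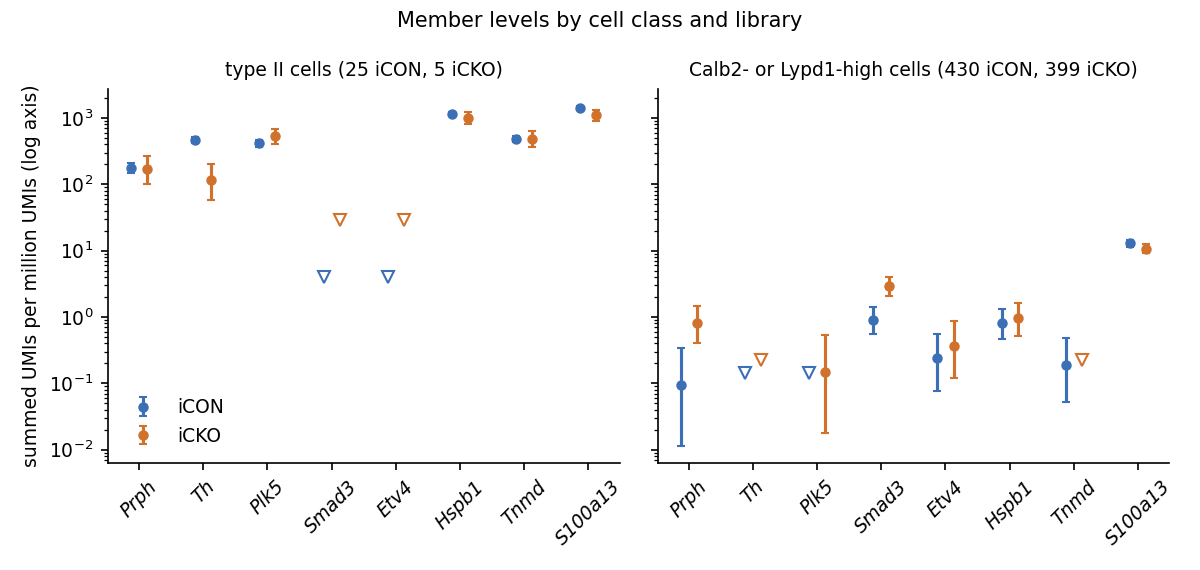
Level of each member (summed UMIs per 1000000 UMIs, log axis) in type II cells and in cells high in *Calb2* or *Lypd1*, by library, with 95% Poisson intervals; open triangles are upper limits where no UMI was counted. The 6 detected members lie far higher in type II cells, and *Smad3* and *Etv4* have only upper limits there.

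*S100a13* had the most UMIs of the members in those cells. It had 272 UMIs in 182 of 430 iCON cells and 145 UMIs in 99 of 399 iCKO cells, with means of 13.95 and 9.86 CPM. In 125 of the 182 and 77 of the 99 it was a single UMI. Free RNA in the droplets was not estimated, and its part in this level, and in that of the other members in these cells, was not tested. The log2 ratio was -0.35, and the counting interval of the summed UMIs was -0.57 to 0.024. Split by sex-linked RNA, the ratio was -0.26 with *Xist* and -0.89 with Y-linked RNA. After thinning to 20000 UMIs, which left out 8 iCON and 2 iCKO cells of lower depth, a UMI was found in 24.9% of 422 iCON cells (interval 20.8 to 29.3) and in 14.9% of 397 iCKO cells (11.5 to 18.7). Before thinning it was found in 42.3% of the 430 and 24.8% of the 399. *S100a13* made up 85.3% of all member UMIs in these iCON cells (80.9 to 88.97) and 34.6% in iCON type II cells (32.95 to 36.3), and in iCKO 67.4% and 32.4%. *Hspb1* made up 5.33% and 28.0% in iCON, and 6.05% and 29.3% in iCKO. This level moved with myelin RNA. In cells with low myelin RNA the mean was 1.98 CPM in iCON and 4.11 CPM in iCKO, and in the others 17.2 and 13.4 CPM. A single iCKO cell, at 280.9 CPM, held 17 of the 28 UMIs behind the 4.11 CPM, and without it that mean was 2.26 CPM, a value computed after seeing the data. The list of 8 Schwann and satellite glia genes had a summed median of 5176 CPM (509.9 to 15947) in iCON and 3573 CPM (544 to 7353) in iCKO, with 5 of the 8 in most cells of each library and none at 0. The list includes *S100b*, with means of 1198 CPM in iCON and 1276 CPM in iCKO over cells that did not meet the type II rule. It had a UMI in 99.3% and 100% of those cells, so part of the sum is this 1 gene. The part of glial RNA in the *S100a13* level was not tested.

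*Smad3* went the other way. In cells high in *Calb2* or *Lypd1* it had 19 UMIs in 18 iCON cells and 39 UMIs in 38 iCKO cells, although iCKO held fewer UMIs in all. The means were 0.885 and 2.97 CPM, a log2 ratio of 0.44 with 5 CPM added to each mean, and the counting interval of the log2 ratio of summed UMIs was 0.85 to 2.55. The interval was 0.54 to 2.80 within *Xist* cells and -0.13 to 3.39 within Y-linked cells, so the direction was the same in both and the latter interval included 0. After thinning a UMI was found in 1.42% of the 422 iCON cells (interval 0.524 to 3.07) and in 5.54% of the 397 iCKO cells (3.51 to 8.27), and before thinning in 4.19% of the 430 and 9.52% of the 399. In type II cells, which had none, the median depth was 28386 UMIs in iCON. Of the cells high in *Calb2* or *Lypd1* with a *Smad3* UMI, 17 of 18 in iCON and 37 of 38 in iCKO held a single one, so the level is close to the smallest that can be seen. *Prph* had 2 UMIs in iCON and 11 in iCKO in the same cells, with a counting interval of 0.90 to 6.31, of which 0 and 10 came from cells with *Xist*. Those with Y-linked RNA held 2 and 1, and the interval there was -4.79 to 5.36.

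Over all cells the libraries differed as their type II shares did. The mean of *Hspb1* was 76.1 CPM in iCON and 17.4 CPM in iCKO, of *S100a13* 106 and 29.7, of *Th* 28.7 and 1.62, of *Plk5* 26.7 and 7.66, of *Tnmd* 25.8 and 6.54 and of *Prph* 10.6 and 2.91. Only *Smad3*, at 0.823 and 2.92 CPM, and *Etv4* did not follow this direction.

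Genes outside the list followed the same cells. By the Pearson correlation across 869 cells of each gene's log level with the mean standardised level of the 8 members, the most alike were *Cpne8* (0.92), *Dupd1* (0.91), *Skap1* (0.90), *Kcnc4* (0.90) and *Cilp* (0.90), followed by *Nog*, *Crabp1*, *Grin2c*, *Islr* and *Necab1* (0.87 to 0.85). These values describe cells that share a library and depth and were chosen through the members. Each member was set against the mean of the other 7, so that it did not enter its own score: *Plk5* stood at 0.86, *Hspb1* at 0.85, *Th* at 0.80, *Tnmd* at 0.77, *Prph* at 0.67 and *S100a13* at 0.56, while *Etv4* stood at 0.017 and *Smad3* at -0.035. *Dupd1*, a dual-specificity phosphatase gene, had means of 944 CPM in iCON type II cells and 6.37 CPM in type I cells, and 1826 against 6.21 CPM in iCKO. *Nog*, which encodes the BMP antagonist noggin, had 242 CPM in iCON type II cells, at a log2 ratio of 5.14 over type I cells. *Kcnc4*, a voltage-gated potassium channel gene, had 242 against 3.30 CPM, and *Crabp1*, which binds retinoic acid, 614 against 12.3 CPM. The type I means of these genes rested on few cells: *Dupd1*, *Kcnc4* and *Crabp1* had 1, 1 and 4 UMIs in the 430 iCON cells high in *Calb2* or *Lypd1*, where their means were 0.0436, 0.0383 and 0.198 CPM.

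The largest other differences were as sharp. *Myl1*, a muscle myosin light chain gene, had 3760 CPM in iCON type II cells against 66.1 CPM in type I cells, and 1069 against 6.60 CPM in iCKO. In cells high in *Calb2* or *Lypd1* its mean was 5.52 CPM in iCON, from 49 of 430 cells, and 6.10 CPM in iCKO. *Apoe*, which is also a glial gene, had 1217 against 23.0 CPM in iCON, but was detected in 15 of 25 type II cells. In iCKO *Apoe* had 188 against 11.9 CPM and was detected in 1 of 5 type II cells. The glia list, which includes *Apoe* itself and *S100b*, had a summed median of 2726 CPM (0 to 9934) in iCON type II cells. In iCKO type II cells it was 47.8 CPM (43.8 to 2175), with *Sox10* among the genes at 0. The part of glial RNA in the *Apoe* level was not tested. On the low side stood *Thy1* (2.84 against 607 CPM in iCON), a neuronal surface protein gene, and *Syt2* and *Synm*, a synaptotagmin and an intermediate filament gene, which had no UMI in any type II cell against 347 and 300.2 CPM. Other known type II genes were read from a list: of 6 with values, 5 were 2-fold higher in iCON, with a median log2 ratio of 2.95, among them *Gata3* (3.85), the neurotrophin receptor gene *Ngfr* (3.76), *Cilp* (4.82) and *Calca* (1.91), and *Tac1* stood at 0.24. *Calca* was low, at a mean of 14.5 CPM with a UMI in 7 of 25 iCON type II cells, and in 1 of 5 in iCKO. *Tac1* had a UMI in 1 of the 25 and 0 of the 5, and stood at -0.30 in iCKO. Of 9 genes typical of type I neurons, 7 were 2-fold lower in iCON, with a median of -2.25, among them *Kcna1* (-3.18) and the vesicular glutamate transporter gene *Slc17a7* (-3.48), while *Pvalb* stood at 0.20. No type II cell held a *Runx1* UMI.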

How the data were processed

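Per the labels, single neurons were measured with the 10x Genomics 3′ v3 assay. Values in the authors' deposited expression table are natural logs of 1 + CPM, by cell, a unit settled from the values. A second deposited table holds a text label per cell that gives its library. Cell Ranger, Seurat and mm10 are named in the submitters' processing notes, with no version or role. The linear values of each cell summed to 1000000, and 100% of nonzero values lay within 1e-06 of a whole multiple of the smallest step, so whole UMIs were recovered and used as depth. The table lists 14425 genes, and UMIs of genes outside it are not in these totals.

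CPM means over cells were compared as log2 ratios with 5 CPM added to each mean. This pseudocount understates the change of low genes. Shares have exact binomial (Clopper-Pearson) intervals, differences of shares Newcombe intervals, summed UMIs Poisson intervals, and ratios of summed UMIs exact binomial intervals, all at 95%. No pseudocount entered the intervals. For a count of 0 the upper limit from 3 counts is given. Cells of 1 library share its preparation, so the intervals cover counting error only. Scrublet, in scanpy 1.11.5, called 1 iCON and 4 iCKO cells as doublets, none of them type II, and they were kept. Other steps used Python 3.11.15, numpy 2.4.6, pandas 2.3.3, scipy 1.17.1 and matplotlib 3.10.9, and were tested on simulated data. Gene positions are from GENCODE M21 and promoters from RefSeq, both on GRCm38.

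The members, the gene lists, the type II rule and the thresholds were chosen with earlier results of these data known. Named genes were the members, the listed genes, the 10 genes most alike across cells among those detected in at least 10 cells, and the 10 highest and 10 lowest ratios of type II over type I cells in iCON with a mean of at least 50 CPM in either and the same direction in iCKO. Alternatives varied the thresholds, pseudocount, depth, cell subsets and doublets. Values of some listed genes are not reported here.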

Additional observations from a re-analysis of the deposited data

Results flagged for a closer look

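The difference between the libraries went in opposite directions in cells with *Xist* RNA and cells with Y-linked RNA. The difference between the sexes was not tested, since each genotype has 1 library. For the share of type II cells, iCKO minus iCON in percentage points came to -9.92 where *Xist* was detected and 6.10 where Y-linked RNA was. Over all cells, the log2 ratios of iCKO over iCON, first with *Xist* and then with Y-linked RNA, were -2.06 and 1.64 for *Prph*, -3.53 and 1.38 for *Th*, and -3.38 and 3.08 for *Plk5*. They were -4.58 and 3.90 for *Hspb1*, -3.39 and 2.88 for *Tnmd*, and -3.59 and 2.50 for *S100a13*. Type II cells, chosen by these genes, all had *Xist* RNA in iCON (25) and Y-linked RNA in iCKO (5). The opposite signs over all cells restate that division and are not separate results. In cells that did not meet the type II rule the ratios were -1.43 and 1.04 for *Plk5*, -2.44 and 2.25 for *Hspb1*, -0.34 and 0.55 for *Tnmd*, and -1.71 and 1.18 for *S100a13*. For *Th* they were -0.80 and 0.32, the latter on 0 and 2 UMIs. In these cells the opposite signs rested on the 7 near cells with high *Gata3*. In cells high in *Calb2* or *Lypd1* the ratios were -0.086 and -0.23 for *Hspb1* and -0.26 and -0.89 for *S100a13*, without opposite signs. *Plk5* and *Tnmd* had 2 and 4 UMIs there in all, too few to read a direction from, and *Th* had none.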

How the results depend on the processing

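No paired analysis was possible because each genotype has 1 library and the labels give no replicate numbers, and for the same reason no replicate could be left out. The difference in type II share, -4.18 points, was -1.46 points when 500 CPM counted as high (9 and 2 cells, -3.21 to 0.122), -2.51 with at least 5 high members and -2.51 without *Hspb1* and *S100a13* (15 and 3 cells in each), -9.92 in *Xist* cells, 6.10 in Y-linked cells and -8.46 in cells with low myelin RNA. The median ratio of the members in type I cells was -0.23, -0.56 and -0.067 with pseudocounts of 1 and 20 CPM, -0.57 with *Xist* RNA, 0.48 with Y-linked RNA and -0.46 with low myelin RNA. It was 0.0046 in cells high in *Calb2* or *Lypd1*, 0.020 there with 1 CPM added and 0.0046 without cells high in *Gata3*, the last 2 settings chosen after seeing the data. Over all cells it was -1.37, and became -1.74 and -0.77 with pseudocounts of 1 and 20 CPM, -3.38 with *Xist* RNA and 2.07 with Y-linked RNA. Cells with at least 2 members were 36, and 68 at 1 UMI. The median of the other type II genes was 2.95, 3.803 and 2.73 with pseudocounts of 1 and 20 CPM and 3.81 with a mean of at least 50 CPM. In type I cells, *Plk5* became 0.039 in cells high in *Calb2* or *Lypd1*, 0.19 there with 1 CPM added and 0.039 without cells high in *Gata3*. Each of these *Plk5* values rested on 2 UMIs or fewer a library and so has no direction. *Prph* became -0.069 in type I cells with low myelin RNA, on 3 UMIs in each library, which gives no direction either. In Y-linked type I cells *Th* was 0.32 (on 0 and 2 UMIs), *Plk5* 1.04, *Hspb1* 2.25 and *S100a13* 1.18. In all Y-linked cells *Prph* was 1.64, *Th* 1.38, *Plk5* 3.08, *Hspb1* 3.90, *Tnmd* 2.88 and *S100a13* 2.50. The cause of these changes was not tested. Of 52 settings of the main values, 32 left the value within its band, 14 moved it and 6 reversed a sign whose band excluded 0. For 262 settings of single genes and other lists these counts were 173, 75 and 14. The band was the counting interval of a share or gene, and 1.5 times for a count of cells. For a median ratio it was the median of the genes' interval ends, not the counting error of that median. Genes without a UMI counted as unchanged and some settings altered no value, so these counts do not measure stability. Depth limits every gene without a UMI in the 5 iCKO type II cells, *Smad3* and *Etv4* among them: up to 28.5 CPM could have gone unseen.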
